A study of Mus musculus with 477 samples.

Results

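The S100 calcium-binding genes *S100a1*, *S100a4*, *S100a6*, *S100a8*, *S100a9*, *S100a10*, *S100a11* and *S100a14* were followed across mammary luminal cells and mammary tumor cells of the mouse. These 8 of the 21004 genes in the count table were chosen by name, and 7 of them had reads. The study asked how the transcriptome alters from *Brca1*-deficient luminal cells to tumors, with 477 single cells captured on Fluidigm C1 chips, which isolate single cells and make full-length cDNA from each. All mice carried *MMTV-Cre*, which acts mainly in mammary epithelium, so no mouse was without Cre. Luminal cells were sorted as CD24 high, CD29 low and green fluorescent, the color that Cre switches on at the *ROSA mT/mG* allele, after depletion of blood and endothelial cells. Tumor cells were sorted as CD24+.

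The luminal mice were females of 3 to 4 months, virgin (v) or at day 12.5 of pregnancy (p). Br mice had both *Brca1* alleles floxed, 53 mice had floxed *Trp53* and intact *Brca1*, and Br53 mice had both changes. The study's methods give *Trp53* as fl/+, while a legend on flow cytometry of luminal mice of this age gives fl/fl, so the number of floxed *Trp53* alleles in the luminal mice is not settled by the sources. The mice were of mixed C57BL/6 and 129/Sv strain. The luminal groups were vBrL (35 cells), pBrL (2 mice, pBrL-1 with 71 cells and pBrL-2 with 38), vBr53L (39), pBr53L (53), v53L (40) and p53L (36). Tumors of about 1 cm came from Br mice (BrT1 with 47 cells and BrT2 with 37) and from Br53 mice (Br53T1 with 30 and Br53T2 with 51). Apart from pBrL, each group was 1 mouse, so a group mean is that of 1 mouse, and only differences over several groups could be tested.

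S100 proteins are small proteins with a pair of EF-hand loops that bind calcium, mostly work as dimers, and on binding calcium expose a surface that grips partner proteins. S100a10 is the exception that no longer needs calcium and holds annexin A2 at the membrane, S100a11 binds annexin A1, S100a6 is known as calcyclin, and S100a4 binds nonmuscle myosin and is best known from motile and metastatic cells. S100a8 and S100a9 together form calprotectin, an abundant neutrophil protein that is also secreted by stressed epithelia and signals through *Tlr4* and *Ager*.

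All 8 genes lie on mouse chromosome 3 (GRCm38, GENCODE vM21). *S100a1* (3:90511034-90514392, minus strand), *S100a14* (90526856-90528837), *S100a4* (90603771-90606045), *S100a6* (90612882-90624181), *S100a8* (90668978-90670035) and *S100a9* (90692632-90695721, minus strand) fall within 185 kb. *S100a11* (93520488-93526287) and *S100a10* (93555080-93564643) lie next to each other in 44.16 kb, about 3 Mb further on. In the annotation *S100a4* shares 302 exonic bases with the readthrough gene *Gm42674*, so its reads could be split between both, and *S100a11* has a processed pseudogene on another chromosome. Neither of these had a row in the table.

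The 250 bases before the RefSeq start (GRCm38.p6) were read for the 6 members with an entry, all but *S100a10* and *S100a14*. They were searched on both strands for a TATA box (TATAAA), an AP-1 site (TGACTCA, or TGAGTCA on the other strand), a GC box (GGGCGG) and an E box (CACGTG). The stretches of 4 genes are shown whole with matches in capitals, since these genes carry the patterns described here: *S100a4* was on in a single tumor, *S100a6* and *S100a11* moved together, and *S100a9* had no read. For *S100a8* only 30 bases around its TATA box are shown.
S100a4 (3:90603520-90603769, plus strand): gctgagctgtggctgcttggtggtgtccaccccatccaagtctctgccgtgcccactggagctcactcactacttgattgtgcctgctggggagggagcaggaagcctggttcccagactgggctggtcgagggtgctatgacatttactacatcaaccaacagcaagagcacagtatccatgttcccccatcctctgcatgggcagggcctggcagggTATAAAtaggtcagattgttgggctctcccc
S100a8 (3:90669029-90669058, plus strand): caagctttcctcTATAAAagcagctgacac
S100a9 (3:90695722-90695971, minus strand): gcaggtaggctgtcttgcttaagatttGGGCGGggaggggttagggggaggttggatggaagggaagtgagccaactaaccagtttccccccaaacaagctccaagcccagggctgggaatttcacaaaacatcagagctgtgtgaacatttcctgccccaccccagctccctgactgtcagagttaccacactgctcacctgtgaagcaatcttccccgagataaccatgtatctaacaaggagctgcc
S100a6 (3:90612644-90612893, plus strand): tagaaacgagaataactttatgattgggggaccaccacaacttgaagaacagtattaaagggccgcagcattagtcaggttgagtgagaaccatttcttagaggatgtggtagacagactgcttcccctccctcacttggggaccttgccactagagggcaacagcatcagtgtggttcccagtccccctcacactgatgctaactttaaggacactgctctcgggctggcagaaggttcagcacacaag
S100a11 (3:93520246-93520495, plus strand): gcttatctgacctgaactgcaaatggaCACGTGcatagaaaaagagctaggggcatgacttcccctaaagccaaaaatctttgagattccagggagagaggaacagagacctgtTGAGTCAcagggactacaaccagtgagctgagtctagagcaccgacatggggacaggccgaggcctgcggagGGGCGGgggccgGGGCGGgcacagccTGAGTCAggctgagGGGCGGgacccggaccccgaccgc
The TATA box of *S100a4* spanned bases 31 to 26 before the start and that of *S100a8* bases 30 to 25, and 12.4% of all 32851 RefSeq promoters of this length hold those letters. *S100a11* held 2 AP-1 sites (bases 136 to 130 and 38 to 32), letters found in 4.46% of promoters, besides 3 GC boxes (32.7%) and 1 E box (6.02%). *S100a9* held 1 GC box, and *S100a1* and *S100a6* held none of the 4 motifs. These are matches of letters, not binding sites.

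Depth ran from 170209 to 3550564 reads per cell and from 40.3 to 116 M reads per mouse, and v53L was the shallowest. Levels are given as CPM, the reads of a gene per M reads, both summed over the cells of a mouse. *Brca1* did not separate the genotypes by level, with 1.70 to 57.2 CPM in the 9 mice with both alleles floxed and 6.99 and 5.21 CPM in v53L and p53L. *Trp53* was at 5.05 (BrT1) and 49.8 CPM (BrT2) in the Br tumors and at 67.2 (Br53T1) and 140.4 CPM (Br53T2) in the Br53 tumors, higher where it was floxed. In pregnant luminal mice it was at 413 and 515 CPM in pBrL-1 and pBrL-2 and lower where it was floxed, at 243 (pBr53L) and 177 CPM (p53L), and virgin mice were at 92.5 (vBrL), 164 (vBr53L) and 93.4 CPM (v53L). Counts per gene cannot tell deleted from kept exons. Groups are therefore named as labelled. BrT1 stood apart from the other tumors: *Epcam* had a read in 14.9% of its cells (exact 95% interval 6.20 to 28.3%) and *Cdh1* in 0 of 47 (up to 7.55%), and its 6 mesenchymal markers summed to 9458 CPM. Of the other marker lists, luminal markers summed to 512 CPM in BrT1 and 4165 to 13003 elsewhere, proliferation genes to 0.421 CPM in v53L and 113 to 2336 elsewhere, dissociation stress genes to 1935 to 7887 CPM, leukocyte and macrophage markers to 0.120 to 311 CPM and endothelial markers to 0 to 9.62 CPM. Chips were tied to groups: the chip SC6 held Br53T2 with pBrL-2, SC7 held vBr53L with pBr53L, SC9 held v53L with p53L, and each other chip held 1 group.

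Of all reads, the 8 genes made up 0.0440 to 0.177% in the luminal mice, 0.828% in BrT1, 0.277% in Br53T1, 0.223% in Br53T2 and 0.0796% in BrT2. Per kilobase of exon the leading member differed between mice. *S100a6* led in BrT1 with 4125 CPM per kb, 59.1% of the family's sum per kb, and in Br53T1 with 1086. *S100a11* led in Br53T2 (756 CPM per kb), vBr53L (679.8) and v53L (684), *S100a10* in pBr53L (261), and *S100a1* in vBrL (264), pBrL-1 (256), pBrL-2 (235), p53L (213) and BrT2 (359.6).

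**Figure D1:**
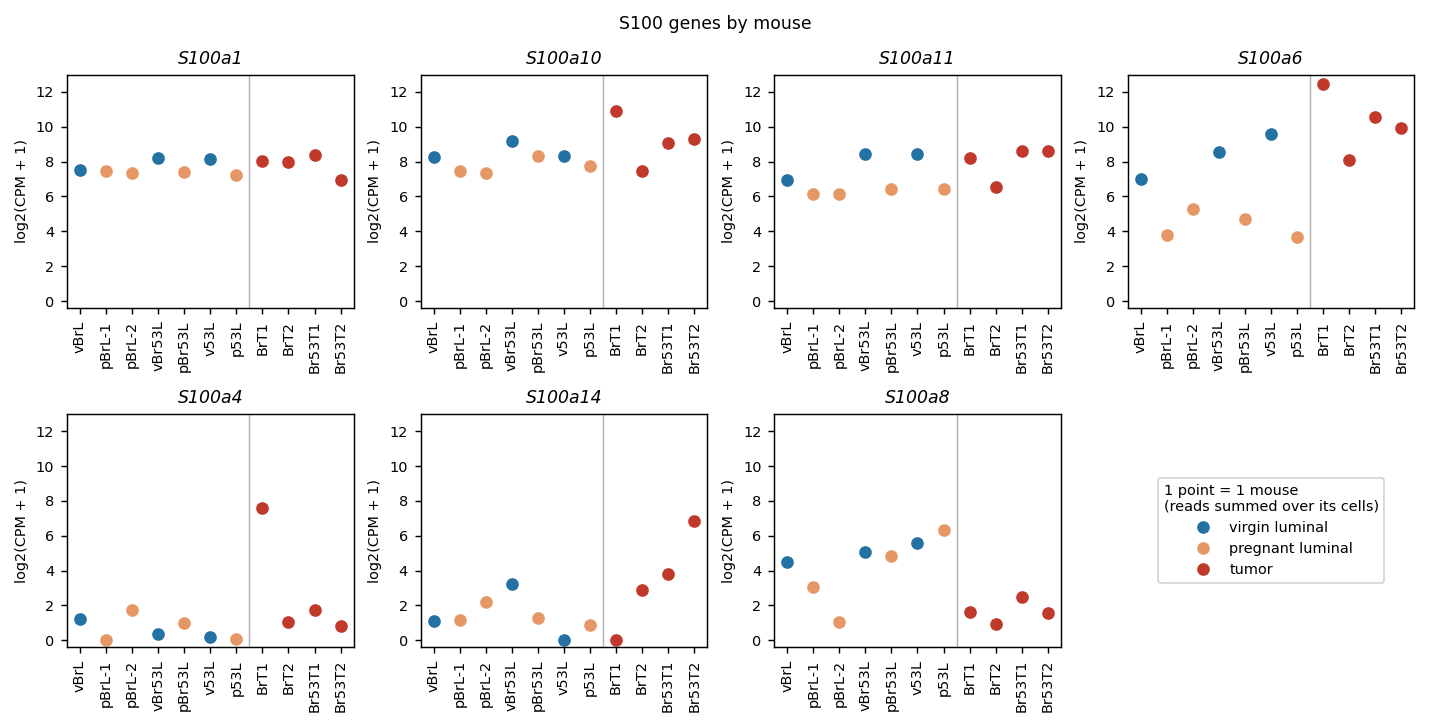
log2(CPM + 1) of 7 S100 genes (vertical axis) in each of 11 mice (horizontal axis); 1 point is 1 mouse, with reads summed over its cells, and colors mark virgin luminal, pregnant luminal and tumor mice. *S100a6* is at 12 to 37.2 CPM in the pregnant mice and 128 to 767 in the virgin ones, *S100a4* reaches 196 CPM in BrT1 only, and *S100a1* stays between 123 and 329.7 CPM.

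*S100a6* varied with stage and between tumors. In virgin mice its level was 128 (vBrL), 375 (vBr53L) and 767 CPM (v53L). In pregnancy it was 12.7 in pBrL-1, 37.2 in pBrL-2, 25.2 in pBr53L and 12 in p53L. The 3 virgin mice all lay above the 4 pregnant mice, without overlap. Among tumors it was 5638 CPM in BrT1, 1485 in Br53T1, 983 in Br53T2 and 268 in BrT2, so that BrT2 fell between vBrL and vBr53L while the other tumors lay above every luminal mouse. The highest tumor was 21.1-fold above the lowest. The spread within a group could be seen only in pBrL, where the 2 mice differed 2.93-fold and enclosed pBr53L in the order of levels. The highest of the 38 cells of pBrL-2 was at 1432 CPM and that of pBrL-1 at 317 CPM, with a median of 0 in both. The spread without that cell was not taken.

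*S100a11* also separated virgin from pregnant luminal mice, on a smaller scale. Virgin mice were at 123 (vBrL), 347 (vBr53L) and 349.5 CPM (v53L), pregnant mice at 70.4 and 70.3 (pBrL-1 and pBrL-2), 85.2 (pBr53L) and 85.2 CPM (p53L). Again virgin and pregnant mice did not overlap, with vBrL nearest to the pregnant mice. Tumors were at 296 (BrT1), 93.7 (BrT2), 394 (Br53T1) and 386 CPM (Br53T2), and BrT2 was the lowest of them, as for *S100a6*.

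For *S100a10* the virgin mice were at 309.7 (vBrL), 588 (vBr53L) and 317 CPM (v53L), and the pregnant mice at 177 (pBrL-1), 163 (pBrL-2), 316 (pBr53L) and 215 CPM (p53L). Here pBr53L reached into the virgin range. BrT1 stood out with 1893 CPM, against 539 in Br53T1, 624 in Br53T2 and 176 in BrT2, a 10.7-fold range with BrT2 inside the range of the 2 pBrL mice.

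*S100a1*, a regulator of calcium release channels in muscle, was the steadiest member. The luminal mice ranged from 148 CPM (p53L) to 291 (vBr53L), 1.97-fold, and the tumors from 123 (Br53T2) to 329.7 (Br53T1), with BrT1 at 259 and BrT2 at 249.6. The 4 pregnant mice (148 to 178 CPM) all lay below the 3 virgin mice (183 to 291), and vBrL (183) was close to pBrL-1 (178).

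*S100a4* was close to absent outside BrT1. It was at 196 CPM in BrT1, from 17738 reads, and at 0 to 2.40 CPM in the other 10 mice, all of which fell within the span of the 2 pBrL mice. In BrT1 a read was found in 93.6% of the cells (exact 95% interval 82.5 to 98.7%) after thinning each cell to 100000 reads, against 16.7% in Br53T1 (5.64 to 34.7%), 2.70% in BrT2, 1.96% in Br53T2 and 0 to 5.71% in the luminal mice. The gene thus marked most cells of 1 tumor and few cells of any other mouse. In BrT1 the 6 mesenchymal markers were all above 0 and, of 7 fibroblast markers, *Dcn* was at 4356, *Col1a2* at 466 and *Pdgfra* at 105 CPM and only *Lum* at 0. The fibroblast markers summed to 5038 CPM in BrT1 and 0.117 to 712 CPM elsewhere. BrT2 also had high mesenchymal markers (6542 CPM, of which *Fn1* 6199.9) but 4.95 CPM of fibroblast markers and 1.04 CPM of *S100a4*. The part of mesenchymal or fibroblast cells in the *S100a4* level was not tested.

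*S100a14*, a member found mainly in epithelia, was highest in Br53T2 at 112 CPM, with a read in 54.9% of the cells (40.3 to 68.9%). Br53T1 was at 13.2 CPM (23.3% of cells), BrT2 at 6.37 (21.6%), and BrT1 had 0 reads, as did v53L. The luminal mice reached at most 8.57 CPM, in vBr53L. Br53T2 was also the mouse with the most basal cell markers: its 6 markers summed to 5335 CPM, against 0 to 375 CPM in the other 10 mice, and the part of those cells in the *S100a14* level was not tested.

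Of the calprotectin pair, *S100a8* and *S100a9*, only *S100a8* had reads in the table. *S100a9* had 0 reads in 477 cells, while *S100a8* had 13673 reads in 77 cells. Whether the annotation used for counting could assign reads to *S100a9* is not given in the sources used here, so no limit on its level is drawn from this row. *S100a8* stood at 21.7 (vBrL), 32.9 (vBr53L) and 46.5 CPM (v53L) in virgin mice, and at 7.23 (pBrL-1), 1.06 (pBrL-2), 28.2 (pBr53L) and 79.5 CPM (p53L) in pregnancy. Tumors had 2.05 (BrT1), 0.902 (BrT2), 4.54 (Br53T1) and 1.95 CPM (Br53T2). Of the 7 luminal mice 6 lay above all tumors, and pBrL-2 lay 6.80-fold below the other mouse of its group. In vBrL 1247 of the 1505 reads came from 1 cell, without which vBrL was at 3.87 CPM, below Br53T1, and 5 of the 7 luminal mice lay above all tumors. The tumor levels also rested on single cells: 1 cell held 185 of the 186 reads of BrT1 and 142 of the 177 of Br53T2, without which they were at 0.0114 and 0.395 CPM. With the top cell left out of every mouse, 6 of 7 luminal mice lay above all tumors. The 2 mice with intact *Brca1*, v53L and p53L, were the highest.

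The *S100a8* reads came from few cells, 63.4% of them from 10 cells, which were all luminal and reached 232 to 1015 CPM. These 10 cells had a read of 0 of 10 neutrophil markers, among them *Ly6g*, *Csf3r* and *Mpo*, and 0 reads of *Ptprc*, the pan-leukocyte gene. Each had *Epcam* (135 to 4879 CPM) and *Krt18* (807 to 4213 CPM). Over all mice the neutrophil markers summed to 0 to 3.52 CPM. Of the 10 cells, that of vBrL also had 2690.3 CPM of leukocyte and macrophage markers, and the others had 0 to 192 CPM.

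**Figure D2:**
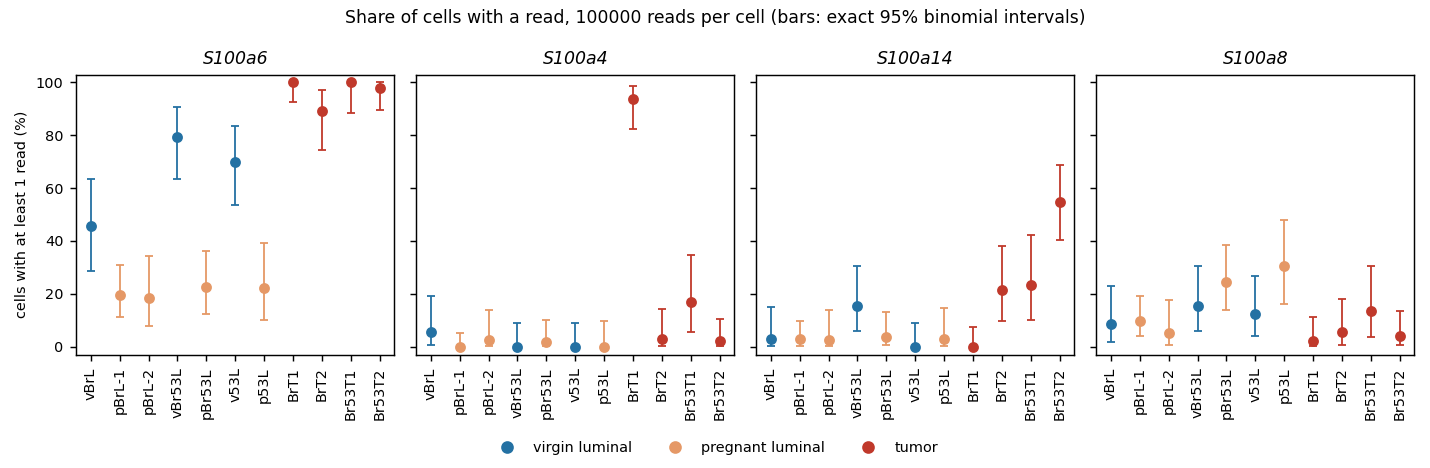
Percent of cells with at least 1 read (vertical axis) of *S100a6*, *S100a4*, *S100a14* and *S100a8* in 11 mice (horizontal axis), each cell thinned to 100000 reads; bars are exact 95% binomial intervals, which cover counting error only. *S100a6* was found in 18.4 to 22.6% of the cells of pregnant mice, 45.7 to 79.5% of those of virgin mice and 89.2 to 100% of tumor cells.

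The share of cells with a read separated members that were spread over all cells from those carried by a subset. *S100a11* had a read in 86.8 to 100% of the cells of every mouse, *S100a10* in 72.5 to 100% and *S100a1* in 58.8% (Br53T2) to 100% (Br53T1). *S100a6* was found in 45.7% of vBrL cells (28.8 to 63.4%), 79.5% of vBr53L cells (63.5 to 90.7%) and 28 of 40 v53L cells (53.5 to 83.4%), against 19.7% in pBrL-1, 18.4% in pBrL-2, 22.6% in pBr53L and 22.2% in p53L. Every tumor was at 89.2% or above. *S100a8* was found in 5.26 to 30.6% of luminal cells per mouse and 2.13 to 13.3% of tumor cells. Cells are not replicates, and these intervals compare the sampled cells and not the conditions.

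**Figure D3:**
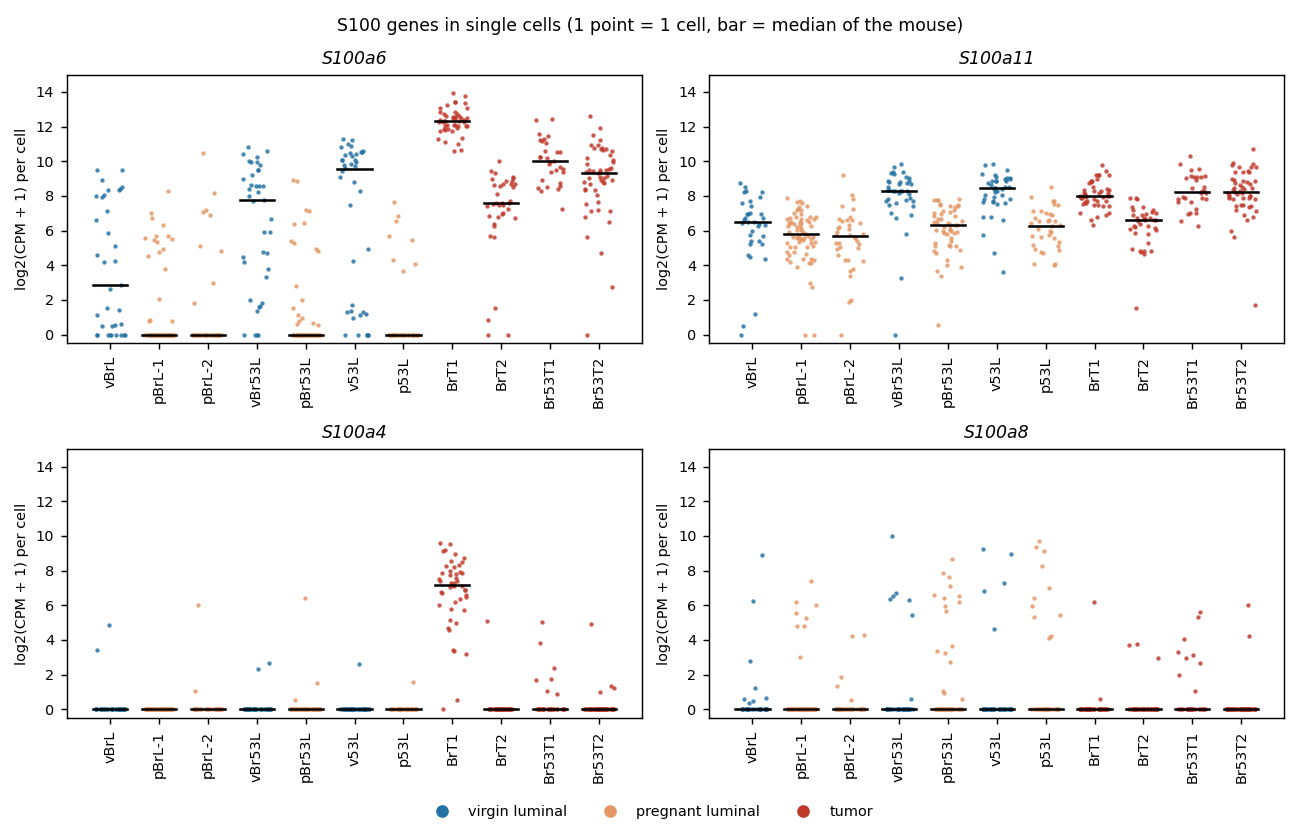
log2(CPM + 1) per cell (vertical axis) of *S100a6*, *S100a11*, *S100a4* and *S100a8* in 11 mice (horizontal axis); 1 point is 1 cell and the bar is the median of a mouse. *S100a6* splits the cells of v53L into 13 cells under 10 CPM and 25 at 100 CPM or more, its median is 0 in all 4 pregnant mice, and *S100a4* has a median above 0 in BrT1 only, at 145 CPM.

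In virgin mice *S100a6* differed widely between luminal cells, most sharply in v53L. There, 25 of 40 cells were at 100 CPM or more, 13 were under 10 CPM and 2 lay between. In the 25 high cells the 6 milk protein genes took a median of 0.0219% of the reads and *Esr1*, the estrogen receptor, had a read in 24. In the 13 low cells milk genes took 9.18% and *Esr1* had a read in 6. In vBrL, where 6 of 35 cells lay between, the 11 high cells had a median of 0.393% milk reads and *Esr1* in 7, against 3.86% and 3 of 18 in the low cells. In vBr53L, where 8 of 39 lay between, the 21 high cells were at 1.47% and the 10 low cells at 3.94%, and *Esr1* was read at a like rate, in 14 and 6 of them. In the pregnant mice only 2 to 5 cells each reached 100 CPM, and these held 0.435 to 4.91% milk reads, against 10.5 to 18.6% in the low cells. *Esr1* did not follow *S100a6* there: it had a read in 0 of 3 high and 13 of 57 low cells of pBrL-1, 2 of 5 and 12 of 31 of pBrL-2, 0 of 4 and 17 of 43 of pBr53L, and 1 of 2 and 6 of 28 of p53L. *Prlr*, the prolactin receptor, was read in nearly all virgin cells of both levels (10 of 11 high and 18 of 18 low in vBrL, 20 of 21 and 9 of 10 in vBr53L, 25 of 25 and 13 of 13 in v53L). In tumors 29 to 47 cells each were at 100 CPM or more.

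Across the cells within a mouse, *S100a6*, *S100a10* and *S100a11* were positively correlated with each other in all 11 mice. The median Spearman correlation coefficient over mice was 0.45 for *S100a6* with *S100a11* (0.07 in BrT2 to 0.76 in v53L), 0.41 for *S100a10* with *S100a11* (0.21 to 0.83) and 0.35 for *S100a6* with *S100a10* (0.16 to 0.76). *S100a1* was weakly correlated with *S100a6* (median 0.14, positive in 9 of 11), and the medians of *S100a8* with these 4 members were -0.09 to -0.04, with *S100a11* positive in 1 of 11 mice. The 10 intracellular partner genes (annexins, *Ahnak*, *Plat*, *Myh9*, *Ppfibp1*, *Cacybp* and *Sugt1*), summed, were also positive with *S100a6*, *S100a10* and *S100a11* in all 11 mice, with medians of 0.42, 0.45 and 0.46. This was not particular to partners. The summed luminal markers were positive with *S100a6* in 10 of 11 mice and with *S100a10* and *S100a11* in all 11 (medians 0.16, 0.28 and 0.26). With the summed milk protein genes the same 3 members were negative in all 7 luminal mice (medians -0.47, -0.29 and -0.49), and *S100a8* was positive in all 7 (median 0.21). With the milk genes left out of each cell's total the medians were -0.47, -0.20, -0.44 and 0.21. These are descriptions over 30 to 71 cells a mouse, which were captured on 1 chip and differ in depth. The median coefficient with reads per cell over all 11 mice was -0.07 for *S100a6*, 0.00 for *S100a10*, -0.12 for *S100a11* and 0.17 for *S100a8*. Over the 7 luminal mice it was -0.12, -0.00, -0.17 and 0.20, so that for *S100a8* depth and milk genes (0.21) had like coefficients.

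**Figure D4:**
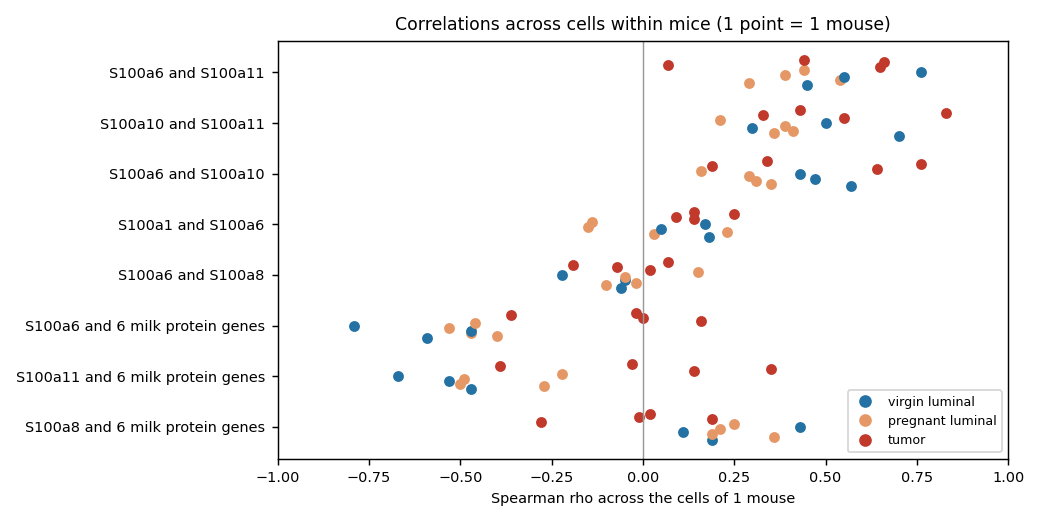
Spearman correlation coefficient across the cells of a mouse (horizontal axis) for pairs of S100 genes and for S100 genes with the summed milk protein genes (vertical axis); 1 point is 1 mouse, colored as virgin luminal, pregnant luminal or tumor. The coefficient of *S100a6* with *S100a11* is above 0 in 11 of 11 mice, and that of *S100a6* with milk genes runs from -0.79 to -0.40 in the luminal mice and from -0.36 to 0.16 in the tumors.

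For the comparison of the 4 tumors with the 5 *Brca1*-deficient luminal mice, counts were summed per mouse and tested with edgeR over all genes. *S100a6* had the highest mean, 2093 ± 2415 CPM (SD, n = 4) for tumors against 116 ± 152 (SD, n = 5), with a log2 difference of 3.97 ± 1.09 (SE) and a Benjamini-Hochberg adjusted p of 0.136 by edgeR. *S100a8* was lower in tumors, 2.36 CPM (SD 1.54) against 18.2 (SD 13.6), a log2 difference of -3.14 ± 1.03 (edgeR adjusted p = 0.200). The log2 difference of *S100a4* was 5.44 ± 1.93 (edgeR adjusted p = 0.234) and came to 0.31 without BrT1. *S100a14* differed by 3.18 ± 1.58, *S100a10* by 1.18 ± 0.60, *S100a11* by 0.89 ± 0.56 and *S100a1* by 0.15 ± 0.34 on the log2 scale. Without BrT1, *S100a6* came to 2.80 and *S100a10* to 0.35, and without Br53T2, *S100a14* came to 0.91. The luminal arm held 2 virgin and 3 pregnant mice: against the virgin or the pregnant mice alone, *S100a6* differed by 2.83 or 6.20 and *S100a11* by 0.10 or 1.78. Without vBr53L, *S100a6* came to 5.18, *S100a11* to 1.56 and *S100a14* to 3.98.

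None of the 7 members tested passed an edgeR adjusted p of 0.05, a threshold that 0.609% of the 12978 genes tested passed. At an unadjusted edgeR p under 0.05 it was 3 members (*S100a4*, *S100a6* and *S100a8*) and 13.8% of genes. DESeq2 called *S100a6* (adjusted p = 0.000978) and *S100a8* (adjusted p = 0.0124), 2 of the 6 members for which it gave an adjusted p (not *S100a4*), and 6.44% of 12553 genes. No member separated the 4 tumors from the 5 luminal mice without overlap, against 5.01% of genes that were higher in every tumor and 2.51% lower. The median log2 difference was 1.18 over the members and 0.06 over all genes. On the chip SC6 alone, Br53T2 minus pBrL-2 was 4.69 for *S100a6*, 2.44 for *S100a11*, 1.93 for *S100a10*, 4.63 for *S100a14*, 0.51 for *S100a8*, -0.41 for *S100a1* and -0.96 for *S100a4* in log2(CPM + 1), so the signs of *S100a8*, *S100a1* and *S100a4* on that chip were opposite to those over all mice.

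**Figure D5:**
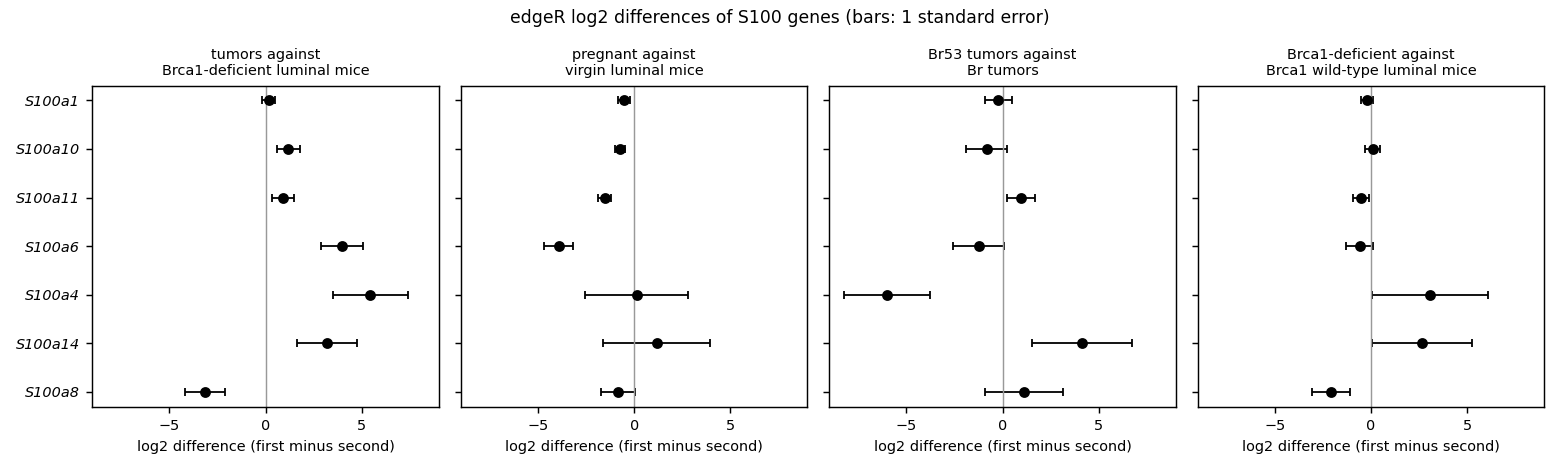
edgeR log2 differences, first minus second group (horizontal axis), of 7 S100 genes (vertical axis) in 4 comparisons; bars are 1 standard error. *S100a6* is at 3.97 in tumors against luminal mice and -3.93 in pregnant against virgin mice, and no point passed an edgeR adjusted p of 0.05.

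For pregnancy, the 4 pregnant mice were compared with the 3 virgin mice, with genotype in the model. The mean of *S100a6* was 21.8 ± 11.9 CPM (SD, n = 4) with pregnancy and 423 ± 322 CPM (SD, n = 3) without, a log2 difference of -3.93 ± 0.73 (edgeR adjusted p = 0.174). The difference was -2.50 in Br, -3.84 in Br53 and -5.88 in 53 mice in log2(CPM + 1), the last 2 of these each within 1 chip. *S100a11* averaged 77.8 CPM (SD 8.58) against 273 (SD 129.9), a log2 difference of -1.52 ± 0.34 (edgeR adjusted p = 0.240), and within the chips SC7 and SC9 it differed by -2.02 in both. *S100a10* differed by -0.74 ± 0.25 and *S100a1* by -0.53 ± 0.29. *S100a8* differed by -0.85 ± 0.88, *S100a4* by 0.13 ± 2.69 and *S100a14* by 1.18 ± 2.78, standard errors that leave the direction of the last 3 unknown.

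By edgeR 0 of 7 members were called, and 0.0146% of the 13709 genes tested. At an unadjusted edgeR p under 0.05 it was *S100a6*, *S100a10* and *S100a11*, 3 members against 8.99% of genes. DESeq2 called *S100a6* (adjusted p = 2.33e-07) and *S100a11* (adjusted p = 0.00141), 2 of 7 against 8.34% of genes. The 3 members *S100a1*, *S100a6* and *S100a11*, were lower in all pregnant mice without overlap, as 5.24% of genes were, and none was higher in all, as 6.11% of genes were. The edgeR adjusted p of *S100a6* was 0.0467 without the genotype term, a fit that called 0.135% of its genes, and 0.000800 with chip in its place, which called 0.617%. In the chip fit vBrL, pBrL-1 and pBrL-2 were each the only luminal mouse of their chip. That fit thus took its difference from the mice of SC7 and SC9 alone, and not from all 7 luminal mice. The 6 hormone-sensing genes (*Prlr*, *Esr1*, *Areg* and others) moved alongside: all 6 were without overlap lower in pregnancy, with a median log2 difference of -4.44 against 0.14 over all genes, and 0 passed edgeR. Of 6 milk protein genes, 4 were without overlap higher (median 2.27) and 0 passed edgeR. Other lists moved too. *Dcn* of the fibroblast list was at 176 to 711 CPM in virgin and 0.0260 to 25.4 CPM in pregnant mice. Of 8 proliferation genes 2 were higher without overlap and 0 lower, and of 6 dissociation stress genes also 2 and 0. What part the make-up of the luminal cells had in the *S100a6* difference was not tested.

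Tumors with and without the floxed *Trp53* allele were set side by side, 2 mice each (Br53T1 and Br53T2, BrT1 and BrT2). *S100a11* was at 394 and 386 CPM in the Br53 tumors and 296 and 93.7 in the Br tumors (log2 difference 0.97 ± 0.72), and *S100a14* at 13.2 and 112 against 0 and 6.37 CPM (4.12 ± 2.62). *S100a4* was lower, with -6.01 ± 2.25, through BrT1 alone. By edgeR 0 of 7 members (adjusted p of 1.00 for each) and 0% of the 13477 genes were called. At an unadjusted p under 0.05 it was 1 member, *S100a4*, and 3.98% of genes. DESeq2 called *S100a4* (adjusted p = 0.0353), 1 of 7 against 2.34% of genes. *S100a11* and *S100a14* were without overlap higher in the Br53 tumors, 2 of 7 against 19% of genes, and no member was lower without overlap, against 12.9%. Without BrT1 the log2 difference of *S100a11* came to 1.89 and without BrT2 to 0.41, and that of *S100a14* to 1.89 without Br53T2 and 15.27 without BrT2. Without BrT1 the log2 difference of *S100a6* turned from -1.25 to 2.04 and that of *S100a10* from -0.83 to 1.55.

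The 5 luminal mice without *Brca1* were compared with the 2 that kept it, v53L and p53L, with stage in the model. *S100a8* averaged 18.2 CPM (SD 13.6, n = 5) in *Brca1*-deficient and 63 (SD 23.3, n = 2) in *Brca1* wild-type mice, a log2 difference of -2.09 ± 0.98 (edgeR unadjusted p = 0.0622), which came to -0.87 without p53L and -3.08 without pBr53L. *S100a6* differed by -0.60 ± 0.70, *S100a11* by -0.53 ± 0.41, *S100a1* by -0.20 ± 0.31 and *S100a10* by 0.08 ± 0.40. *S100a4* (3.05 ± 3.00) and *S100a14* (2.66 ± 2.60) rested on levels of 8.57 CPM or less, and *S100a14* ran from 1.09 without v53L to 11.58 without p53L. The direction of *S100a6* did not hold with each mouse left out, with 0.83 without v53L, 0.01 without vBrL and -1.71 without p53L. By edgeR 0 of 7 members and 0% of the 13709 genes were called, at an unadjusted p under 0.05 it was 0 members and 5.97% of genes, and DESeq2 called 0 members and 3.99% of genes. *S100a14* was without overlap higher in the *Brca1*-deficient mice, as 8.21% of genes were, and *S100a8* lower, as 3.12% were. Both wild-type mice came from the chip SC9, which held no other mouse, so that chip and genotype cannot be told apart. Both also carried floxed *Trp53*, which vBrL, pBrL-1 and pBrL-2 did not. With the Br53 mice alone as the *Brca1*-deficient arm, where all mice had floxed *Trp53*, the log2 difference of *S100a8* was -1.12 (edgeR adjusted p = 1.00).

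Of 8 other S100 genes in the table, 7 were on the list tested here, and *S100a2*, which was not, had 18 reads over all cells. *S100a13* (29.4 to 78.9 CPM) and *S100a16* (62.8 to 302 CPM) were found in every mouse, and *S100a3* was at 0.0144 to 9.26 CPM. *S100a7a* reached 14 CPM in Br53T2, *S100g* 19.7 CPM in Br53T1, *S100a5* 1.71 CPM in BrT1 and *S100b* 2.29 CPM in Br53T2, and each was at or under 1 CPM in the other mice. The reads of *S100a7a* and *S100b* in Br53T2 came from 1 of its 51 cells each. None of the 7 passed edgeR in any of the 4 comparisons (4 or 5 tested in each).

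Among partners, *Anxa2*, the annexin held by S100a10, was at 717 to 2645 CPM in the virgin and 189 to 470.3 CPM in the pregnant mice, without overlap (log2 difference -2.14, edgeR adjusted p = 0.199). *Ahnak*, a large scaffold bound by that pair, was also without overlap lower in pregnancy (log2 difference -1.54 ± 0.25, edgeR adjusted p = 0.129). These were the only 2 of the 10 partners lower in all pregnant mice, against 5.24% of all genes. None of the partners was higher in all, against 6.11% of genes. *Anxa1*, the annexin of S100a11, ranged over 1125 to 5517 CPM (luminal) and 1428 to 6110.1 CPM (tumors). All 10 partners were tested in each comparison and 0 passed edgeR, with a median log2 difference of 0.68 for tumors and -0.45 for pregnancy. Of the 6 receptor genes for extracellular S100 proteins, 1 passed in tumors, against 0.609% of all genes tested. *Cd36*, a fatty acid and S100a8/S100a9 receptor, ranged over 7.31 to 1763 CPM without tumor (*Brca1*-deficient) and 0 to 0.0773 CPM with tumor (edgeR adjusted p = 0.0177). For *Tlr4* these ranges were 21.6 to 81.4 and 2.22 to 35.4 CPM (edgeR adjusted p = 0.263), and *Ager* was at 0 to 20.9 CPM over all mice. The luminal range of *Cd36* followed stage. Of the *Brca1*-deficient mice, vBrL was at 72.7 and vBr53L at 7.31 CPM, against 1057 to 1763 CPM in the pregnant ones. The virgin v53L, outside this comparison, was at 0.471 CPM.

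The other genes within 1 Mb of the S100 loci numbered 90 in the table. Of these, 41 were tested in tumors and 44 in pregnancy, and 0 passed edgeR in either, with median log2 differences of 0.34 and -0.04. Over the 11 mice, the genes most like each member in log2(CPM + 1), out of 8722, were *Bmp1* (Pearson r = 0.962) and *Cd63* (0.958) for *S100a6*, *Pmepa1* (0.953) and *Basp1* (0.95) for *S100a11*, *Zwint* (0.948) and *Rcan1* (0.925) for *S100a10*, *Mroh1* (0.865) and *Plod1* (0.858) for *S100a1*, *Dkk2* (0.958) and *Itga7* (0.956) for *S100a4*, *Krt17* (0.978) and *Hras* (0.908) for *S100a14*, and *Uqcrb* (0.912) and *Nus1* (0.874) for *S100a8*. Those for *S100a4* rest on 1 high mouse, BrT1, and Br53T2 was the highest mouse for both *S100a14* (112 CPM) and *Krt17* (1754 CPM), with the others at or under 13.2 and 51.6 CPM. Between members, r was 0.87 for *S100a6* with *S100a11*, 0.81 for *S100a6* with *S100a10* and 0.76 for *S100a10* with *S100a11*.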

How the data were processed

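The data were single-cell RNA-seq counts of 477 cells from 11 mice. Per the labels and methods, the authors filtered reads with sickle, trimmed them with Trim Galore 0.4.1, aligned them to mm10 with STAR 2.5.3a and counted reads per gene with Subread 1.5.3. The deposited values are raw counts without molecular identifiers, so that PCR copies are counted separately. Annotation and strand settings are not given in the sources used here, and reads of overlapping genes cannot be told apart. Doublets were inspected by the authors under a microscope and were not called again.

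The mouse was the replicate. The summed counts of the mice entered one fit over all genes by the quasi-likelihood test of edgeR 4.0.16 in R 4.3.3 (filterByExpr, TMM), with Benjamini-Hochberg adjustment and a threshold of 0.05. The step was tested on simulated data. Pregnancy was fitted with genotype and *Brca1* with stage. *S100a9* did not pass the low-count filter, and 7 of 8 members did. For shares each cell was thinned to 100000 reads (0 cells were shallower) and exact 95% Clopper-Pearson intervals were taken. Intervals cover counting error only. Positions came from GENCODE vM21 (99.6% of symbols matched), promoters from RefSeq. CPM per kb used the union of annotated exons, and correlations over mice a pseudocount of 1 CPM and genes of at least 10 CPM on average. Alternatives were RLE and library size scaling, DESeq2 1.42.0, no filter, cells with at least 2000 genes, 30 cells per mouse, mean CPM with limma 3.58.1, other covariates and arms, and leaving out each mouse.

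The members and all lists were chosen with earlier results of these data known. The rule named the members, the 2 genes most like each, and list genes that were called or among the 3 highest of their list. Other list genes were named after their values were seen. The lists were other S100 genes, partners, receptors, milk proteins, hormone sensing, proliferation and dissociation stress, and markers of luminal, basal, mesenchymal, fibroblast, neutrophil, leukocyte and macrophage, and endothelial cells. The level of 100 CPM for high cells of *S100a6* and the split by it were chosen after the values were seen.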

Additional observations from a re-analysis of the deposited data

Results flagged for a closer look

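Among 21 combinations of a member and a group of 4 or 5 mice, 4 held a mouse far from the others, where chance flags about 1 in 20 groups. *S100a4* was at 196 CPM in BrT1, and the gap to the next tumor was 0.992 of the range of the 4 tumors. *S100a14* was at 112 CPM in Br53T2, with a gap of 0.882 of the range. Among the 5 *Brca1*-deficient luminal mice, vBr53L was apart for *S100a1* (291 CPM, gap 0.844) and for *S100a11* (347 CPM, gap 0.810). That group mixed virgin mice (vBrL and vBr53L) with pregnant mice, while the chance rate assumes like mice. The virgin v53L, which was outside it, was close to vBr53L, at 289 CPM for *S100a1* and 349.5 CPM for *S100a11*.

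Pregnancy went in opposite directions between genotypes for 3 members, in log2(CPM + 1), pregnant minus virgin. *S100a8* was at -2.46 in Br mice, -0.22 in Br53 mice and 0.76 in 53 mice. Of the 1505 *S100a8* reads of vBrL, 1247 came from 1 cell. With the top cell left out of each mouse, vBrL was at 3.87 CPM, between pBrL-1 (4.55) and pBrL-2 (0.548). In that setting pBr53L (20.3 CPM) lay above vBr53L (10.8 CPM), and p53L stayed above v53L. The opposite directions of *S100a8* were thus not kept without these cells. *S100a14* was at 0.55 in Br, -1.96 in Br53 and 0.87 in 53 mice. *S100a4* was at -0.36 in Br, 0.64 in Br53 and -0.11 in 53 mice, from levels of 0 to 2.40 CPM. With 1 or 2 mice a group these differences were not tested.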

How the results depend on the processing

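The counts of members called were 0 in all 4 comparisons and stayed at 0 in 56 of 64 alternative fits. DESeq2 called 2 members in tumors against luminal mice, 2 in pregnancy and 1 between the tumor genotypes. Without the low-count filter 2 members were called in pregnancy (1.99% of genes) and 1 between the tumor genotypes (1.67%). In pregnancy 1 was called (*S100a6*) without the genotype term (0.135% of genes) and 1 with chip as a block (0.617%). Leaving out each mouse gave 0 to 2 members between the tumor genotypes, where the 2 (*S100a4* at -7.00 and *S100a14* at 15.27 log2, edgeR adjusted p = 0.00589 and 0.0130) came without BrT2, where 228 of 15223 genes were called, which left BrT1 alone in its group, assumed to vary like the others, and 0 in the other 3 comparisons. Between DESeq2 and edgeR, the count over all genes was 808 against 79 in tumors, 1055 against 2 in pregnancy, 315 against 0 between tumor genotypes and 509 against 0 for *Brca1*. Without the filter edgeR called 129, 366, 295 and 10.

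The directions of *S100a4*, *S100a6*, *S100a8*, *S100a10*, *S100a11* and *S100a14* in tumors, and of *S100a6*, *S100a10*, *S100a11* and *S100a1* in pregnancy, held in every alternative fit. Of 447 log2 differences, 23 changed sign and none of these passed the threshold on either side. *S100a1* in tumors came to -0.15 against virgin mice only and ranged from -0.02 to 0.37 with each mouse left out. In pregnancy *S100a4* came to -2.95 and *S100a14* to -1.60 with 30 cells per mouse, *S100a14* to -0.10 with mean CPM and -0.87 without genotype, and *S100a8* to 0.35 with chip. With each mouse left out they ranged from -1.53 to 0.60 (*S100a4*), -0.62 to 2.73 (*S100a14*) and -1.51 to 0.33 (*S100a8*). Between tumor genotypes the ranges were -7.03 to 0.37 (*S100a4*), -2.18 to 2.04 (*S100a6*), -1.69 to 1.55 (*S100a10*) and -1.15 to 0.30 (*S100a1*). For *Brca1*, *S100a10* came to -0.41 with Br mice only and ranged from -0.18 to 0.40, and *S100a6* from -1.71 to 0.83. The cause was not tested. Leaving out the cell with most *S100a8* reads in every mouse, an alternative chosen after seeing the data, gave 6 of 7 luminal mice above all tumors. Thinning to 50000 reads or not at all moved 17 of 156 share values out of their intervals.

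The chips SC7 and SC9 each held a virgin and a pregnant mouse of 1 genotype. The fit with chip as a block drew its pregnancy difference from these mice only. No replicate number in the labels pairs mice of different groups.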
